A study of Mus musculus with 6 samples.

Results

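The enzymes described here act on steroid hormones and related sterols in the liver, where these molecules are interconverted and cleared from the blood. They comprised 10 genes, which were Hsd3b2, Hsd3b3, Hsd3b5, Hsd3b7, Hsd17b2, Hsd17b6, Hsd17b11, Akr1c6, Akr1d1 and Srd5a1. Their members were taken from the array as the non-control probes whose RefSeq accession belonged to one of these genes, which gave 12 probes among the 22911 named genes measured. Hsd3b2 and Akr1d1 had 2 probes each, and each of the other 8 genes had 1. All 12 probes were well above background on all 6 arrays, so none was lost to a filter on dim spots.

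RNA came from liver tissue of male mice that were 12 weeks old when feeding began, of which 3 were kept on regular chow (control) and 3 received a soy-enriched diet (soy) for 4 weeks. The control diet was regular food alone, whereas the soy diet held 75% regular food and 25% soy bean powder. No strain, genotype or transgene is given for these animals, and both groups shared sex, age and housing. Each mouse was measured on 1 array of 1 colour, so n = 3 per group throughout. Between 36366 and 38163 of 59305 spots were well above background on the control arrays and between 31308 and 32498 on the soy arrays. All 10 hepatocyte markers examined, among them albumin (Alb), Apoa1 and Ttr, were well above background on every array.

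Hydroxysteroid dehydrogenases move hydrogen between a steroid and a nicotinamide cofactor, and so switch a hydroxyl group to a ketone or back, which turns active hormones into weaker ones and the reverse. Steroid reductases saturate the A ring of testosterone, progesterone and glucocorticoids, which in the liver is a main step of their clearance. In the mouse liver several of these genes are known for a strong difference between the sexes that follows the pattern of growth hormone release.

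None of the 10 genes passed the threshold used between soy and control livers, which asked for an adjusted p below 0.05 together with a ratio over 1.5 or below 0.66 (limma, Benjamini-Hochberg over all probes). The gene nearest to it was Hsd17b11, which had the largest difference, a log2 change of 0.89, and was the only one whose 3 soy values all lay above the 3 control values. Hsd17b6 had a change of similar size, 0.79, with overlapping groups. Hsd3b2 and Hsd3b5 had the lowest changes, both -0.39, and Akr1c6, at -0.042, was closest to 0. A log2 change is the mean log2 signal of the soy arrays minus that of the control arrays, so that 1 is a doubling.

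**Figure D1:**
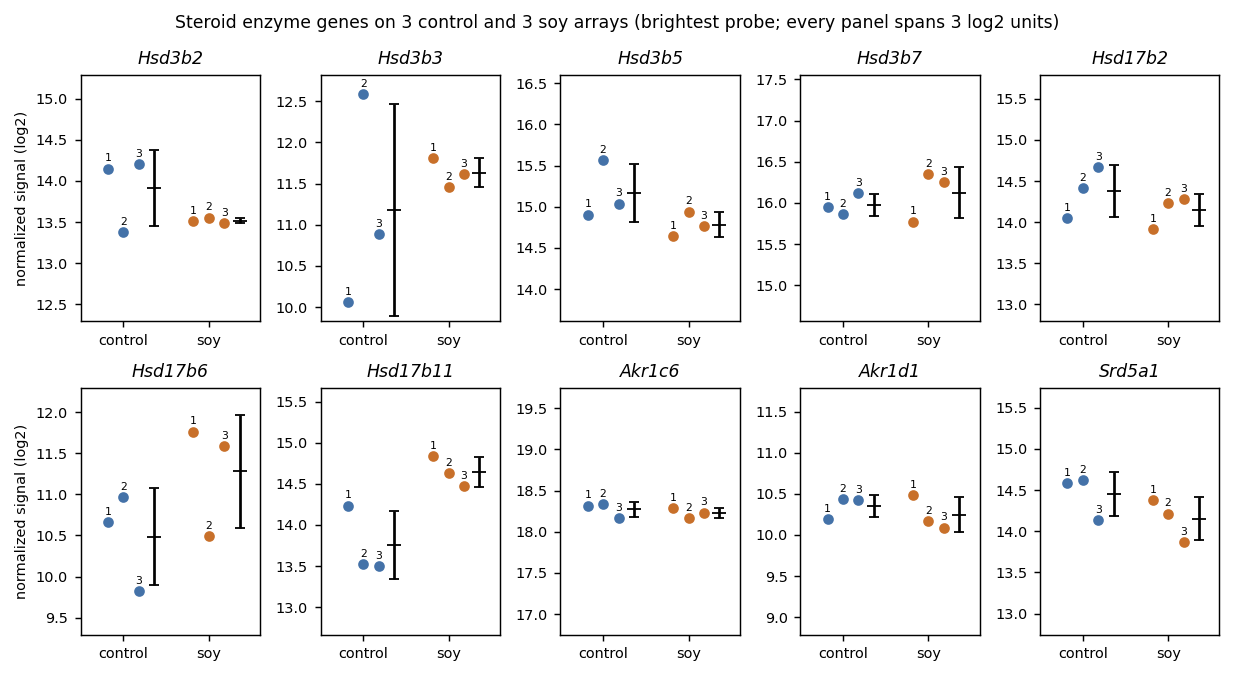
Normalized signal (log2) of the 10 steroid enzyme genes, by the brightest probe of each, with 1 point per mouse numbered by replicate and black marks for the mean and SD of each group. Only for Hsd17b11 do the 3 soy points lie clear of the 3 control points, and the control points of Hsd3b3 spread over 2.53 log2 units.

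Over the array 122 of the 22911 genes, or 0.532%, passed the threshold (78 higher, 0.34%, and 44 lower, 0.192%), against 0 of the 10 steroid enzymes. The count over the array fell to between 16 and 63 without any 1 of control mice 1 and 2 and the 3 soy mice, and was 126 without control mouse 3. At an unadjusted p under 0.05 the count was 1 of 10 (Hsd17b11), and it was 20.1% of the 13513 genes that were, like these, well above background on all 6 arrays. Groups that did not overlap were found for 1 of the 10 enzymes and for 25.6% of those 13513 genes (13.3% higher and 12.3% lower in soy livers). The median log2 change was -0.074 over the enzymes and -0.0050 over the 13513 genes, and the median size of the change, without its sign, was 0.34 and 0.15. Of the enzymes 4 had higher and 6 lower means in soy livers, and 49.1% of the 13513 genes had higher means. In whole tissue, fewer cells of a type and less RNA per cell cannot be told apart.

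The Hsd3b genes encode enzymes that oxidise the 3-hydroxyl of steroids, and in several the same protein moves a double bond in the ring; in the mouse most of them lie side by side on chromosome 3. Their RefSeq order there (GRCm38.p6) was Hsd3b4, Hsd3b5, Hsd3b2, Hsd3b3, Hsd3b6 and Hsd3b1, whereas Hsd3b7 lies elsewhere. These paralogs are similar in sequence, and whether a probe for one also binds the transcript of another was not tested here. The region just before the start site is shown for the 3 clustered members, because neighbouring genes can share it. Each sequence is the 250 bases upstream of the start on the minus strand of GRCm38.p6, from RefSeq, at chr3:98645535-98645784 for Hsd3b5, at chr3:98763129-98763378 for Hsd3b3 (the first of its entries) and at chr3:98724544-98724793 for Hsd3b2. Capitals mark runs of at least 10 bases that are identical where the Hsd3b5 and Hsd3b3 sequences align.
Hsd3b5: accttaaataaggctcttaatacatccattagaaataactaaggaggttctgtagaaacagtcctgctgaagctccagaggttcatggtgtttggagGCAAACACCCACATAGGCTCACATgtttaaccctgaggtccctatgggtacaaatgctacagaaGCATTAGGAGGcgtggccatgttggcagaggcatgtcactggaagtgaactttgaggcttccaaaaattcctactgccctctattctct
Hsd3b3: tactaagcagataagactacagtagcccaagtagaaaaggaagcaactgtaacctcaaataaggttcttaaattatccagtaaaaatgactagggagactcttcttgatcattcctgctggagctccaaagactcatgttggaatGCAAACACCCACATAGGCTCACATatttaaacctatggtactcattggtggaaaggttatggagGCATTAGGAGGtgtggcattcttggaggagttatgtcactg
Hsd3b2: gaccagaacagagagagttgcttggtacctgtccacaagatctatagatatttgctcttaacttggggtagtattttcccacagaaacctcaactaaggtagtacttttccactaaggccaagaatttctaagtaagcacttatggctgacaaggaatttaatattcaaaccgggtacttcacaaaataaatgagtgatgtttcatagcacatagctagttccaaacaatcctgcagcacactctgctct
Hsd3b5 and Hsd3b3 aligned over 199 bases, of which 151 were identical (75.9%), and they shared 2 such runs, the longer of 24 bases. The Hsd3b2 sequence had no alignment of that length with either.

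Hsd3b3, an isoform of liver and kidney, varied more between control mice than any other enzyme here. Its log2 signal was 10.06, 12.59 and 10.89 in control mice 1, 2 and 3, and 11.81, 11.46 and 11.62 in soy mice 1, 2 and 3. Control mouse 2 was the highest and control mouse 1 the lowest of all 6, and the 3 soy mice lay between them. The control SD was 1.29, and only 0.253% of the 27310 probes that were well above background on all arrays had a larger one; the median was 0.153. The soy SD was 0.18. The difference between the diets, 0.45 (SE 0.55, 95% interval -0.84 to 1.74), was smaller than this spread and did not pass (limma, adjusted p = 0.803). It was -0.11 without control mouse 1, the only omission that turned its sign, and 1.16 without control mouse 2.

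The neighbouring Hsd3b1 and Hsd3b6, which are known mainly from steroid-producing tissues, placed the control mice in the same order. Hsd3b1 read 8.04, 9.60 and 8.34 in control mice and 8.88, 8.97 and 8.69 in soy mice (log2). Hsd3b6 read 8.78, 10.34 and 9.001 in control mice and 9.54, 9.62 and 9.46 in soy mice. In both, control mouse 2 was highest and control mouse 1 lowest, with a gap between those animals of 1.56, against 2.53 for Hsd3b3. The first gene of the cluster, Hsd3b4, was well above background on 2 control arrays and on 0 soy arrays by its brightest probe, and its order over the arrays is not given.

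Hsd3b5, the abundant male-biased isoform of mouse liver, works mainly as a ketosteroid reductase. It read 14.91, 15.57 and 15.04 in control mice and 14.64, 14.94 and 14.76 in soy mice (log2). Soy mouse 1 and soy mouse 3 lay below all controls, but soy mouse 2 was above control mouse 1, so the groups overlapped. The log2 change was -0.39 (SE 0.18, interval -0.82 to 0.035; limma, adjusted p = 0.475), and it ran from -0.52 without control mouse 1 to -0.19 without control mouse 2, the highest animal.

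Hsd3b2, another member of the cluster, gave 2 probes that did not order the animals alike. The brighter probe read 14.15, 13.38 and 14.21 in control mice and 13.51, 13.55 and 13.49 in soy mice (log2). The dimmer one read 11.83, 12.64 and 12.06 in control mice and 11.92, 12.15 and 11.92 in soy mice. Control mouse 2 was thus the lowest of the 6 on the brighter probe and the highest on the dimmer one, which placed the 3 control mice, though not the soy mice, in the order seen for Hsd3b3. The log2 change was -0.39 (SE 0.21, limma, adjusted p = 0.543) on the brighter and -0.18 (SE 0.20, limma, adjusted p = 0.781) on the dimmer probe. The soy animals were close to each other on the brighter probe, with an SD of 0.034 against 0.46 in controls. Its change was -0.66 without control mouse 2 (limma, adjusted p = 0.145), -0.27 without control mouse 1 (limma, adjusted p = 0.752) and -0.24 without control mouse 3 (limma, adjusted p = 0.768).

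**Figure D2:**
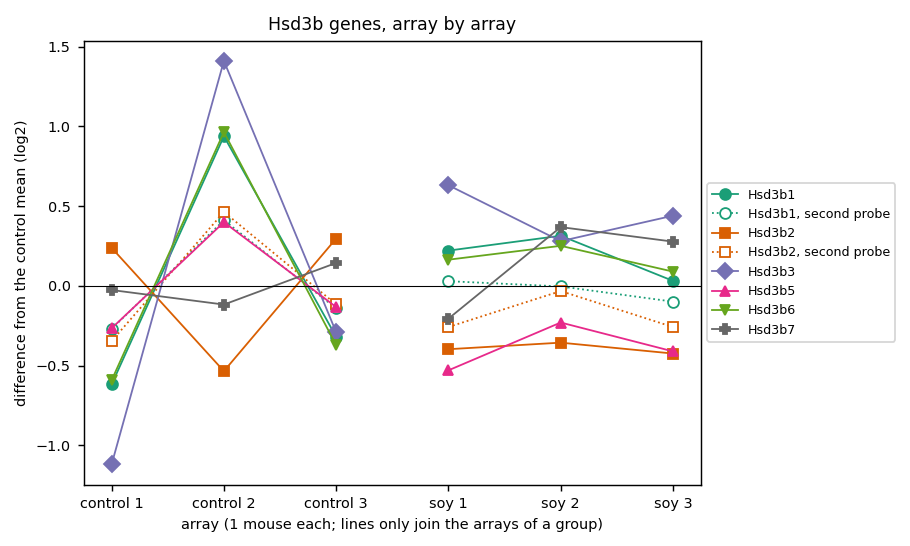
Log2 difference from the control mean on each array for the Hsd3b genes, by brightest probe (filled) and second probe (open); lines only join animals of 1 group. Control mouse 2 is above the control mean for Hsd3b1, Hsd3b3, Hsd3b5, Hsd3b6 and the second Hsd3b2 probe, and below it for the brightest Hsd3b2 probe and for Hsd3b7.

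Control mouse 2 and control mouse 1 also stood apart in some markers of blood cells, whose part in the Hsd3b3 values was not tested. The neutrophil gene S100a9 read 9.09, 10.36 and 9.52 in control mice and 10.08, 10.44 and 10.31 in soy mice, and S100a8 was likewise lowest in control mouse 1. Alas2, an enzyme of haem synthesis in red cell precursors, was 11.42 in control mouse 2 and between 13.28 and 13.95 in the other 5 mice. The summed signal of the 5 red cell and neutrophil markers on the array was 17.35, 16.92 and 17.45 in control mice and 17.07, 18.11 and 17.32 in soy mice on the log2 scale. Its brightest gene was the haemoglobin gene Hba-a1, and Ngp, a neutrophil granule gene, was well above background on 0 arrays.

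The genes whose signal over the 6 arrays was most like that of Hsd3b3 were Srpr (r = 0.985), Ociad2 (r = 0.984), Itpa (r = 0.984), Zfp407 (r = 0.983) and Hdac3 (r = 0.979). They were the first 5 of 13497 genes, of which 81 had a Pearson correlation over 0.9. The 6 points share their arrays and their normalization, and with so few points the correlations only describe the order of the animals. Srpr, a subunit of the signal recognition particle receptor, ranged over 1.05 log2 units and Itpa, an inosine triphosphatase, over 0.37.

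Hsd3b7, which acts on cholesterol-derived intermediates early in bile acid synthesis, read 15.95, 15.86 and 16.12 in control mice and 15.77, 16.35 and 16.26 in soy mice (log2). Soy mouse 1 was the lowest of the 6 and the other soy mice the highest. The log2 change of 0.15 (SE 0.17, interval -0.24 to 0.53; limma, adjusted p = 0.785) had no fixed sign between slides, being -0.13 within the slide that held control mice 1 and 2 and soy mouse 1, and 0.13 within the slide that held control mouse 3 and soy mouse 3. It ran from 0.036 without soy mouse 2 to 0.32 without soy mouse 1.

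Among the Hsd17b genes, whose products act mainly on the 17-hydroxyl of oestrogens and androgens, the members differed in sign. Hsd17b11 encodes an enzyme of lipid droplets and the endoplasmic reticulum that can oxidise androgen metabolites. Its log2 signal was 14.23, 13.53 and 13.50 in control mice 1, 2 and 3, and 14.83, 14.63 and 14.47 in soy mice 1, 2 and 3. Every soy animal was above every control animal, the nearest being control mouse 1 and soy mouse 3. The means were 13.75 ± 0.42 in control and 14.65 ± 0.18 in soy livers (SD, n = 3). The log2 change was 0.89 (SE 0.21, 95% interval 0.41 to 1.38), a fold change of 1.86 with an interval of 1.32 to 2.60. Unadjusted p was 0.0031 and, with limma and the adjustment over all 56605 probes, 0.153, so that the gene did not pass.

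The difference in Hsd17b11 was 0.95 within the first slide and 0.97 within the third, and it ran from 0.76 to 1.13 as each array was left out in turn. Its adjusted p (limma) lay between 0.0342 and 0.370 over 18 other settings. The lowest value came from Feature Extraction's processed signal with 75th-percentile scaling, so that signal and scaling both changed. It was the only one of those settings under which Hsd17b11 passed, with a log2 change of 0.90. There 5892 genes passed over the array, 5332 of them with a higher and 615 with a lower probe. The main test gave 78 and 44. The 250 bases before its start, on the minus strand at chr5:104021797-104022046 (GRCm38.p6, RefSeq), are shown as those of the gene with the largest change, and capitals mark the motif CCAAT, which begins 115 bases before the start.
Hsd17b11: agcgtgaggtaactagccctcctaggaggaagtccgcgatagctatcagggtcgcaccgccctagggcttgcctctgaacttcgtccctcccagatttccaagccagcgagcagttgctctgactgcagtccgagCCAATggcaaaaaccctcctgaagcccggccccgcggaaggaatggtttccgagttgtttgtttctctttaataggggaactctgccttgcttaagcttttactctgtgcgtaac
CCAAT was found on either strand within 250 bases before to 50 after the start in 5 of the 9 members with a RefSeq entry (Hsd3b3, Hsd17b6, Hsd17b11, Akr1c6 and Srd5a1) and in 41.1% of 27025 genes. TATAAA was found in Akr1c6 alone (15.7% of genes), AGGTCA in Akr1d1 alone (18.1%) and TTCNNNGAA in Hsd3b7 alone (9.55%). A match describes these letters and is not evidence of binding.

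Hsd17b6, which oxidises weak androgen metabolites back towards active androgen, was the member with the largest spread between soy animals. It read 10.66, 10.96 and 9.83 in control mice and 11.76, 10.50 and 11.58 in soy mice (log2). Soy mice 1 and 3 were above all controls, whereas soy mouse 2 was below control mice 1 and 2. The log2 change was 0.79 (SE 0.39, interval -0.11 to 1.70; limma, adjusted p = 0.494), a fold change of 1.73. It was 1.19 without soy mouse 2 and 0.46 without control mouse 3. Within slides it was 0.95 on the first and 1.75 on the third, neither of which held soy mouse 2, the only animal on the second slide.

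Hsd17b2, which inactivates oestradiol and testosterone, read 14.04, 14.42 and 14.67 in control mice and 13.92, 14.23 and 14.28 in soy mice (log2). The soy values lay low but overlapped the controls, and the change was -0.23 (SE 0.18, interval -0.65 to 0.18; limma, adjusted p = 0.670). Within slides it was -0.31 and -0.38, and it ran from -0.40 without control mouse 1 to -0.087 without control mouse 3.

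**Figure D3:**
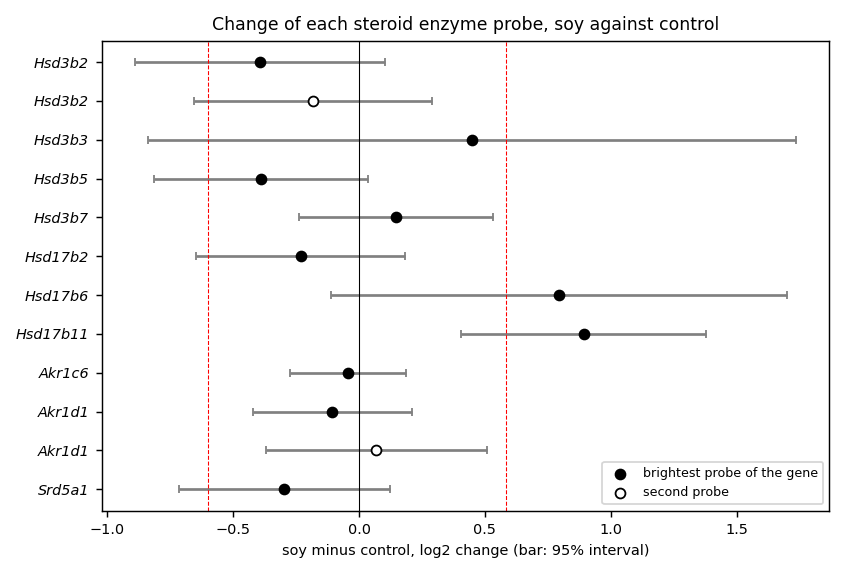
Log2 change, soy minus control, of the 12 steroid enzyme probes with 95% intervals from limma; dashed lines mark the fold thresholds of 1.5 and 0.66. Only the interval of Hsd17b11 (0.41 to 1.38) excludes 0, and those of Hsd3b3 and Hsd17b6 are the widest.

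The 3 reductases had log2 changes between -0.30 and -0.042. Akr1c6, a liver aldo-keto reductase that reduces the 17-ketone of androgens, read 18.32, 18.33 and 18.16 in control mice and 18.29, 18.16 and 18.23 in soy mice (log2), with both groups within 0.17 of each other. Its change of -0.042 (SE 0.099; limma, adjusted p = 0.906) had an interval of -0.27 to 0.19, or a fold change between 0.828 and 1.14, so neither a rise of 1.5-fold nor a fall to 0.66 lay inside it. Of the probes well above background on all arrays, 97.2% had a wider range.

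Akr1d1, the reductase that gives bile acids and steroids their bent A/B ring junction, had 2 probes with changes of opposite sign. The brighter read 10.20, 10.43 and 10.43 in control mice and 10.48, 10.16 and 10.09 in soy mice (log2). The dimmer read 8.68, 9.33 and 8.82 in control mice and 9.25, 8.90 and 8.90 in soy mice. The groups overlapped on both, with changes of -0.11 (SE 0.14, limma, adjusted p = 0.814) and 0.069 (SE 0.19, limma, adjusted p = 0.921). On the brighter probe the change was 0.17 within the first slide and -0.34 within the third, and it ran from -0.22 without soy mouse 1 to -0.028 without soy mouse 3.

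Srd5a1, the liver form of the reductase that turns testosterone into dihydrotestosterone, read 14.59, 14.62 and 14.14 in control mice and 14.38, 14.21 and 13.86 in soy mice (log2). Soy mouse 3 was the lowest of the 6, and control mouse 3 was below soy mice 1 and 2. The change was -0.30 (SE 0.18, interval -0.72 to 0.12; limma, adjusted p = 0.590), and it was -0.22 and -0.28 within slides. It ran from -0.45 without control mouse 3 to -0.15 without soy mouse 3.

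In 7 of the 10 enzymes the control SD was larger than the soy SD, which was so for 59.3% of the 13513 genes well above background on all arrays. The median SD of the enzymes was 0.33 in control and 0.19 in soy livers, and that of the 13513 genes was 0.16 and 0.13. In 9 of the 10 enzymes, all but Hsd17b11, the range among the 3 control mice was wider than the difference between the diets, as it was in 10059 of the 13513 genes.

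Other genes of steroid handling, sex-biased genes and cell type markers were read beside these enzymes from 16 lists of 150 genes, of which 143 were on the array and 2 passed. None of 23 other steroid dehydrogenases and reductases passed (limma; 7 had an unadjusted p under 0.05), and 16 of them had higher means after soy. Their median log2 change was 0.17, against -0.074 for the 10 enzymes. The smallest adjusted p among them was that of Akr1c14, a hydroxysteroid dehydrogenase of the same family as Akr1c6. Its log2 signal was 13.85, 14.05 and 14.22 in control mice and 14.61, 14.81 and 14.97 in soy mice. Its groups were apart on both probes, with changes of 0.76 (SE 0.14, limma, adjusted p = 0.0825) and 0.67. Hsdl2, a peroxisomal protein related to steroid dehydrogenases, had a change of 0.68 (SE 0.16, limma, adjusted p = 0.148), and Srd5a3, a reductase needed for dolichol synthesis, one of 0.49 (SE 0.11, limma, adjusted p = 0.149).

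None of the 12 steroid hydroxylases of liver passed (limma; 3 had an unadjusted p under 0.05). Their log2 changes ran from -1.38 to 1.28, with 3 genes lower and 9 higher in soy livers. The 3 with the smallest adjusted p were Cyp3a enzymes, which hydroxylate testosterone and many drugs, with log2 changes of 0.57 for Cyp3a25 (limma, adjusted p = 0.101), 1.28 for Cyp3a11 (limma, adjusted p = 0.128) and 0.80 for Cyp3a41a (limma, adjusted p = 0.172). All 3 had groups that did not overlap, whereas Cyp3a13, of the same family, had a change of -0.28 with overlapping groups (limma, adjusted p = 0.550). Their sequences are similar too.

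Of 15 genes of steroid conjugation, 4 of which were well above background on no array, 11 had an unadjusted p under 0.05. The groups did not overlap in 7 genes with higher means after soy, one of them Sult2a1, which was well above background on 0 arrays, and in 4 with lower means, where 25.6% of the 13513 bright genes had groups that did not overlap. Only 1 passed (limma), Sult1a1, a sulfotransferase of phenols and oestrogens. The probe that passed read 16.17, 15.94 and 16.17 in control mice and 15.26, 14.99 and 15.25 in soy mice, and fell by 0.93 on the log2 scale (SE 0.12, limma, adjusted p = 0.0331). Its brighter probe had a change of -0.89 (limma, adjusted p = 0.0749), and Sult1a1 passed in 0 of the 6 fits that left out an array. It did not pass with slide or replicate number as a block, or with an offset of 16 in the background correction. Sult1e1, the oestrogen sulfotransferase, was well above background on all control arrays and on 0 soy arrays, at least 2.05-fold lower in soy livers (limma, adjusted p = 0.0749). A bound of this kind sets the bright group's mean against the higher of the dim probe's own signal and the lowest signal well above background. It compares means and leaves out the spread between mice. The log2 change of Sult1e1 was -1.09, with a 95% interval of -1.53 to -0.65. Ugt2b37, a glucuronosyltransferase, had a change of 0.66 (limma, adjusted p = 0.105), and those of its relatives Ugt2b5, Ugt2b34, Ugt2b35, Ugt2b36 and Ugt2b38 lay between 0.51 and 0.79 with groups that did not overlap, while that of Ugt2b1 was -0.44.

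Among 10 other genes of bile acid synthesis, a list that did not hold Hsd3b7 and Akr1d1, 9 had higher means in soy livers and none passed (limma; 3 had an unadjusted p under 0.05). Acox2, the oxidase that shortens the bile acid side chain, had a change of 0.64 (limma, adjusted p = 0.0804), Cyp8b1, the sterol hydroxylase that sets the share of cholic acid, one of 0.71 (limma, adjusted p = 0.136), and Baat, which joins bile acids to taurine and glycine, one of 0.56 (limma, adjusted p = 0.390). That of Baat was 0.28 without control mouse 1, and 0.46 on its dimmer probe (limma, adjusted p = 0.106).

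None of 8 steroid receptor genes passed (limma; 2 had an unadjusted p under 0.05), with changes of 0.48 for the progesterone-binding membrane protein Pgrmc1, 0.39 for the mineralocorticoid receptor Nr3c2 and -0.31 for the oestrogen receptor Esr1. The dimmer Esr1 probes also had lower means in soy livers, with changes from -0.43 to -0.21. On some of them the groups were apart, and some were well above background on no soy array. None of 8 genes that supply NADPH, the cofactor of the reductases, or pass on its electrons passed (limma; 4 had an unadjusted p under 0.05), with changes of 0.67 for malic enzyme Me1, -0.73 for G6pdx and -0.68 for the P450 reductase Por. Of the 7 genes that make steroid hormones in gonad and adrenal, none passed (limma; 1 had an unadjusted p under 0.05) and only 3 were bright enough to be well above background on all 3 arrays of 1 diet or both. Cyp21a1, the steroid hydroxylase of the adrenal cortex, had changes of -1.54 and -0.23 on its 2 probes, Cyp17a1 one of -0.23, and Cyp11a1, the side-chain cleavage enzyme, was well above background on 1 soy array alone.

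**Figure D4:**
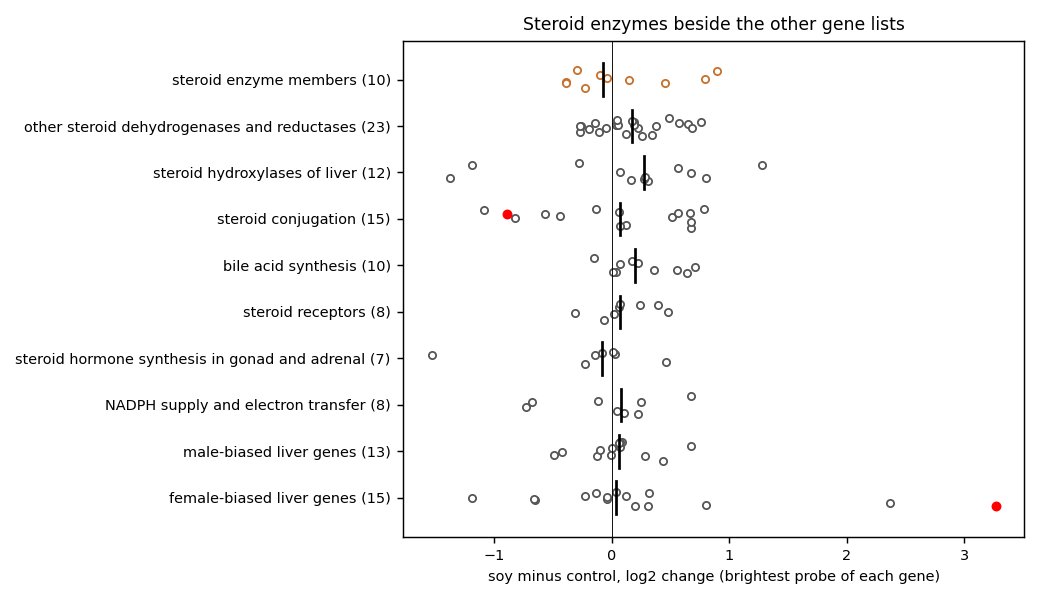
Log2 change, soy minus control, of each gene by its brightest probe, in the steroid enzyme members (orange) and 9 other lists, with the number of genes on the array in brackets; black bars are medians and red points are genes that passed on at least 1 probe. The red points are Sult1a1, lower, and Cyp4a14, higher in soy livers.

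The sex-biased genes of liver were compared because Hsd3b5 and others here belong to that programme. None of 13 male-biased genes passed (limma; 3 had an unadjusted p under 0.05) and 7 had higher means in soy livers, with changes of 0.67 for Ugt2b38, -0.49 for Selenbp2, 0.44 for Gstp1, -0.42 for Susd4 and 0.28 for Cyp2d9. Gstp1 was lowest in control mouse 1, at 16.22 against 16.64 and 16.97 in the other controls. Susd4 was lowest in soy mouse 3 (12.89, against 13.52 and 13.30 in the other soy mice). Cyp2d9 was highest in soy mouse 1 (16.25, against 16.01 and 15.71). Of 15 female-biased genes, 5 of which were well above background on no array, 1 passed, and 8 had higher means in soy livers. Cyp4a14, a fatty acid hydroxylase that also responds to lipid-sensing receptors, read 6.93, 6.72 and 7.26 in control mice and 9.78, 10.21 and 10.74 in soy mice, and rose by 3.27 on the log2 scale (SE 0.25, limma, adjusted p = 0.00785). The thioesterase Acot3 had a change of 2.37 (limma, adjusted p = 0.0767), and the prolactin receptor Prlr one of -0.67 (limma, adjusted p = 0.216).

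Markers of the cell types in liver were read in the same way, and their part in the enzyme values was not tested. Of 10 hepatocyte markers 9 had lower means after soy and none passed (limma; 3 had an unadjusted p under 0.05), and their median log2 change was -0.20. The leading ones were Pck1 of gluconeogenesis, at -0.84 (limma, adjusted p = 0.0568), Tat of tyrosine breakdown, at -0.76, and Cps1 of the urea cycle, at -0.47. Pck1 passed with the processed signal and 75th-percentile scaling, the 75th-percentile shift, cyclic loess, other variance settings, probe means and the bright-probe filter. It did not pass with either block or when any array was left out. The summed signal of the 10 markers was 21.20, 21.22 and 21.16 in control mice and 21.07, 20.92 and 21.02 in soy mice (log2). No marker of Kupffer, endothelial, stellate or bile duct cells, of blood cells or of adipocytes passed (limma; 1 had an unadjusted p under 0.05). The median log2 changes were 0.11 for Kupffer cell, -0.10 for endothelial, -0.056 for stellate, 0.12 for cholangiocyte, 0.42 for red cell and neutrophil and -0.084 for adipocyte markers. The red cell and neutrophil median was that of Alas2, and without control mouse 2 it was 0.23, with Alas2 at -0.42. The adipocyte-defining Adipoq and Plin1 were well above background on 0 arrays. Among the Kupffer cell genes Vsig4 had a log2 change of 0.43, Cd5l of 0.45 and Marco of -0.73, and among the endothelial genes Kdr had one of 0.31, Clec4g of 0.20 and Lyve1 of -0.66. That of Marco was -0.20 without control mouse 3, and that of Lyve1 was -0.036 without control mouse 1. Cd5l was lowest in control mouse 1, at 13.33 against 14.1 and 14.07 in the other controls. Vsig4 was lowest there too, at 10.24 against 10.55 and 10.94. The log2 changes of the stellate genes Hhip, Colec11 and Reln were 0.51, -0.33 and -0.23, with 1 mouse apart in each. Hhip read 9.13 in soy mouse 3, against 8.53 in soy mice 1 and 2. Colec11 read 13.12 in control mouse 1 (12.54 and 12.47 in the other controls), and Reln 11.15 in control mouse 3 (11.84 and 11.64). The log2 changes of the neutrophil genes S100a8 and S100a9 were 0.58 and 0.62, and control mouse 1 was lowest for both. S100a8 read 7.96 there, against 9.05 and 8.61 in the other controls. Of the cholangiocyte genes, Sox9 had a log2 change of -0.16 on its brighter probe, with overlapping groups. On its dimmer probe the change was 0.35 and the groups did not overlap (limma, adjusted p = 0.412). Krt7 was well above background on the control arrays alone. Its log2 change was -0.14, with a 95% interval of -0.37 to 0.087 (limma, adjusted p = 0.639). Epcam was well above background on 0 arrays. Of the adipocyte genes Cidec had a change of 0.61, which was 0.074 without soy mouse 1, and Lep one of -0.21.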

How the data were processed

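Liver RNA of 6 mice was hybridised to 1-colour Agilent arrays (G3 Mouse Gene Expression, version 2). The authors processed the scanned images with Feature Extraction 11.5.1.1 and deposited, per the file headers, median spot intensities and median local background intensities, not scaled between arrays. They also deposited a table of log2 values, with array medians of 7.33 to 7.34, within 0.0561 of those computed here.

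Intensities were background corrected (normexp, offset 50), control spots removed, log2 values quantile normalised, outlier spots dropped and replicate spots of a probe averaged. The paper's methods name the median signals, limma and Benjamini-Hochberg adjustment, and no normalisation. Soy was tested against control over 56605 probes with limma 3.58.1 in R 4.3.3. A gene is given by its brightest probe and passed when at least 1 probe did. Symbols came from RefSeq accessions (GRCm38.p6), which named 58.3% of probes. Promoters were aligned with Biopython 1.88, tables made with pandas 2.3.3 (Python 3.11.15) and plots with matplotlib 3.10.9. The number of arrays limits the precision. The fit was tested on simulated data. The members and lists were chosen with earlier results of these data known.

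Genes named were all members, from each other list those that passed, filled up to 3 by the smallest adjusted p (5 in the sex-biased lists), and the 5 genes most like the member of largest spread; Alas2, Hba-a1, Adipoq, the 3 hepatocyte genes of the opening and the neighbouring Hsd3b genes were added after their values were seen, as were Cyp3a13 and the Ugt2b genes beside Ugt2b37. One gene that the rule names is not reported here. Groups are those of GEO's labels. Alternatives were other background corrections, signals, scalings, filters, variance settings, probe means, the replicate number or slide as a block, the authors' values, no fold threshold, and the omission of each array in turn.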

Additional observations from a re-analysis of the deposited data

How the results depend on the processing

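Of 180 values recomputed for the 10 enzymes under 18 other settings, 174 kept their sign and stayed short of the threshold, 1 passed it and 5 changed sign; 7 of the enzymes never changed sign. Those that did were Akr1c6, Hsd3b7 and Hsd3b3, and the cause was not tested. Akr1c6 was 0.011 with the processed signal and 75th-percentile scaling, 0.021 with cyclic loess and 0.010 with slide as a block. Hsd3b7 was -0.019 with slide as a block. Hsd3b3 was -0.11 without control mouse 1, and up to 1.16 without control mouse 2. With the other variance setting, the replicate block, the bright-probe filter or outlier spots kept, every log2 change of the enzymes equalled that of the main test. Probe means also left the change of each enzyme with 1 probe as it was. In those cases the kept sign carries no information. The median log2 change of the enzymes ran from -0.15 to -0.036 as each array was left out, and 0 enzymes passed in any of those fits. With the processed signal and 75th-percentile scaling, 1 enzyme (Hsd17b11), 29 genes of the other lists and 5892 genes over the array passed. Of those calls 89.7% were higher, against 63.9% in the main test. That setting changed both the signal and the scaling, and the processed signal was not tested with the main scaling. The 75th-percentile shift without the processed signal gave 181 genes over the array and 0 enzymes.

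The counts over the array moved more. They were 48 genes with an offset of 16 and 310 when the test was confined to probes bright on every array of at least 1 diet, and for the other lists 1 and 7. With slide as a block they were 16 and 1. Leaving out control mouse 1, 2 or 3 gave 63, 45 or 126 genes over the array, and leaving out soy mouse 1, 2 or 3 gave 30, 18 or 16; the other lists gave 1 to 4. The 75th-percentile shift moved the median of all genes by 0.11 (log2).

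Animals of the same number in both groups are separate mice, and the labels describe no pairing by number. Their deviations correlated at 0.12, -0.060 and 0.097, with 3 of 6 arrays closest to their own number. These values cannot decide whether the numbers pair the animals. The arrays numbered 1 in both groups shared a slide, as did those numbered 3, so number and slide are mixed. With the replicate number as a block 50 genes over the array, 1 of the other lists and 0 enzymes passed. With 3 arrays per group, differences of the size of the spread between mice, as in Hsd3b3 and Hsd17b6, cannot be resolved.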
